A study of Mus musculus with 24 samples.

Results

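The share of newly made RNA was measured gene by gene in 3T3-L1 pre-adipocytes, a mouse fibroblast line that turns into adipocytes after hormonal induction. For each gene, the labelled share is the number of reads with a T-to-C conversion divided by all reads of the same 3′ UTR entry in the same library. Of 26995 gene symbols in the deposited tables, 7460 had at least 200 total reads in each of the 3 DMSO day −2 libraries and form the set described here. Where a gene had several entries, the one with most total reads on average over the 24 libraries was taken. Members were thus chosen by total reads. The 5% of members with the highest mean share (373 genes) are called fast and the 5% with the lowest (373 genes) slow, so both classes were selected on the shares at DMSO day −2, which are given as a description, without a test.

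The study followed adipogenesis with and without ML-792, an inhibitor of the enzyme that activates SUMO, with 3 biological replicates (A, B and C) for each of 8 conditions. The DMSO day −2 group holds 3T3-L1 cells in vehicle, taken before the hormones were added. The ML-792 day −2 group is the same stage in 0.5 µM ML-792, and its 3 libraries had no part in the read minimum or the classes, but their total reads counted in the choice of entry. The other groups are DMSO and 0.5 µM ML-792 at days 1, 3 and 7 of differentiation, in medium with dexamethasone, 3-isobutyl-1-methylxanthine and insulin, replaced by insulin medium from day 3. All cells received 100 µM 4-thiouridine for 45 min before harvest. All libraries come from 1 cell line, and there was no library without the label among those analysed.

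4-thiouridine is taken up by cells and built into RNA in place of uridine. Alkylation of the base then makes it read as cytidine, so that RNA made during the pulse carries T-to-C conversions and older RNA does not. At a steady level, an mRNA that is made and degraded quickly is renewed to a larger extent within the pulse. Transcripts of immediate early genes, feedback inhibitors and cytokines are known to be short-lived, and many of them carry AU-rich elements in the 3′ UTR that bind decay factors. Transcripts of metabolic enzymes, ribosomal proteins and matrix proteins are known to last longer. The steady level was not tested here, so the labelled share is a measure of new RNA relative to the pool, and a rise in synthesis and a short life of the RNA cannot be told apart from it.

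Examples of such AU-rich stretches are shown for 5 of the members with the highest shares, each as 30 bases of the sense strand of the gene's entry in GRCm38, with the pentamer ATTTA in capitals. All lie inside an exon of the RefSeq annotation and outside coding sequence. Ptgs2 (chr1:150105794-150105823, plus strand) holds 3 overlapping copies and 1 apart, Fos (chr12:85477103-85477132, plus), Cyr61 (chr3:145646999-145647028, minus, annotated as Ccn1) and Dusp1 (chr17:26506158-26506187, minus) hold 2 overlapping copies, and Zfp36 (chr7:28376925-28376954, minus) holds 1 in this window.
Ptgs2: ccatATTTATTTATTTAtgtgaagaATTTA
Fos: tgttttcaATTTATTTAttaagatggattc
Cyr61: tgaagagaATTTATTTAtaaaattaatcat
Dusp1: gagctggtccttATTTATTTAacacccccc
Zfp36: agattttatagtATTTAtatatattgggtc

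Over all entries, the DMSO day −2 libraries held 22292366 total and 820046 labelled reads in A, 19478069 and 528191 in B, and 20631646 and 644966 in C. With 1 entry per gene, the members took between 96.6% and 96.7% of the total reads. Genes known from pre-adipocytes were abundant, with 16 of 21 markers among the members and 39443 to 81828 reads for Dlk1, the classical pre-adipocyte factor. Of 20 markers of mature adipocytes, 9 were members, Adipoq had 248 to 452 reads, and the defining adipokine Lep had 0 to 1. Other markers went against this split. Lpl, lipoprotein lipase, had 23345 to 25534 reads, Fabp4 919 to 1510 and Scd1 1064 to 1696, whereas the pre-adipocyte markers Dpp4, Cd34 and Fap had 0, 9 to 19 and 13 to 21.

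The labelled share spanned a wide range. Its median over the members was 2.33%, and the 5th and 95th percentiles were 0.542% and 9.56%, a 17.6-fold range. The libraries differed in level, with median shares of 2.75% in A, 1.91% in B and 2.25% in C. Across genes the shares ranked alike in the libraries (Spearman's rho 0.757 for A against B, 0.790 for A against C and 0.730 for B against C, over 7106 to 7255 genes with a labelled read in both). These correlations are across genes, and genes are not independent replicates. Depth set how finely a gene could be placed. At 200 reads a share of 2.5% has a 95% Wilson interval from 1.07% to 5.72%, and at 10000 reads a share of 2.33% has one from 2.05% to 2.64%. Both cover counting error only, since reads without molecular identifiers are not independent molecules.

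Labelled and total reads rose together across genes, with Pearson's r of 0.698 on log10 values over 7456 members with a labelled read. Labelled reads are counted within the total reads, so such a rise is in part fixed by construction. The share itself was nearly unrelated to abundance (Pearson's r −0.11, Spearman's rho −0.13). The median share was 3.01% in the 10% of members with the fewest total reads and 1.69% in the 10% with the most. Fast and slow genes were found in both, 44 and 34 among the former and 54 and 47 among the latter. The ranking of genes by new RNA and by total RNA therefore differed, and the 100 members with the most labelled reads shared 38 with the 100 with the most total reads. Fast genes held 30.5% of the members' labelled reads and 6.19% of their total reads. Slow genes held a similar 6.16% of the total reads but 0.801% of the labelled reads.

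**Figure D1:**
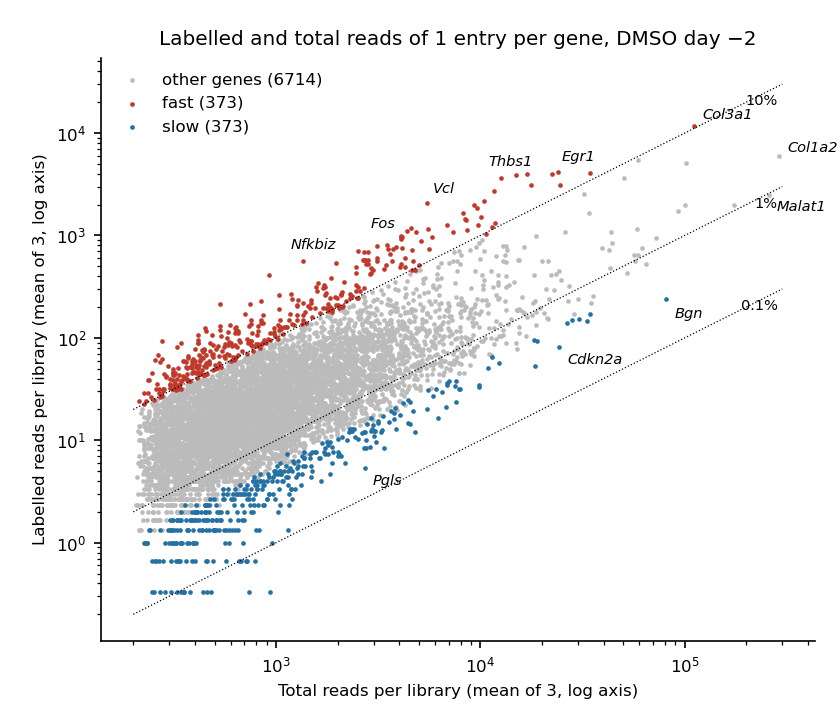
Labelled against total reads of the members in DMSO day −2, each the mean of 3 libraries, on 2 log axes. Each point is 1 gene (4 members without a labelled read are not drawn), fast and slow genes are coloured, and dotted lines mark shares of 0.1%, 1% and 10%. Fast and slow genes lie side by side over the whole range of total reads.

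The most abundant RNAs showed this split. Col1a2, a chain of type I collagen, had 336117, 230137 and 302071 total reads in A, B and C and labelled shares of 2.17%, 1.82% and 2.07%, close to the median of all members. Its partner chain Col1a1 had 163918 to 187211 total reads and a lower share of 1.12% ± 0.22 (SD, n = 3). Col3a1, the chain of type III collagen, had 101762 to 117162 total reads and shares of 12.6%, 7.47% and 11.3%, and was the member with the most labelled reads, 7602 to 14763. Its share exceeded that of both type I chains in each library. Unlike most members, Col3a1 kept its share at later days, with 10.3% on average over the 9 later DMSO libraries, and whether this share comes from new RNA was not tested. Malat1, an abundant nuclear noncoding RNA, had 116199 to 371516 total reads and a share of 1.01% ± 0.11 (SD, n = 3). Actb, cytoplasmic actin, had a share of 4.85% ± 1.27 and Acta2, smooth muscle actin, of 8.90% ± 1.30. Egr1, an immediate early transcription factor with 21307 to 27040 total reads, stood at 17.4% ± 1.25 and was among the 5 members with the most labelled reads.

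Among members with at least 1000 reads in each library, and leaving out those whose share stayed as high at later days (described further on), the 12 highest shares were led by Nfkbiz, a nuclear regulator of NF-κB, with 40.3%, 42.2% and 40.5% in A, B and C (496 of 1231, 647 of 1533 and 530 of 1310 reads). Thbs1, the matrix glycoprotein thrombospondin, had 29.6%, 27.4% and 29.1%. Dusp1, a phosphatase that switches off MAP kinases, had 31.9%, 27.4% and 25.1%. In every library more than 25% of the reads of these 3 genes were labelled.

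Transcriptional regulators followed. Klf10, a zinc finger factor induced by TGF-β, had 27.4%, 26.0% and 29.1%. Id1, which blocks basic helix-loop-helix factors, had 26.7%, 24.9% and 26.9%, and Hes1, a repressor downstream of Notch, 28.5%, 22.1% and 27.7%. Fos, a subunit of AP-1, had 24.5%, 23.1% and 24.1%. None of the 12 fell below 22% in any library.

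The remaining 5 of the 12 have other roles. Zfp36 encodes tristetraprolin, which binds AU-rich elements and speeds the decay of their mRNAs, and its own share was 25.6% ± 3.26 (SD, n = 3). Plk2, a polo-like kinase, had 25.6% ± 1.33, and Errfi1, a feedback inhibitor of the EGF receptor, 25.5% ± 1.34. Ptgs2, the inducible cyclooxygenase that makes prostaglandins, had 24.5% ± 1.06 and Cyr61, a secreted matricellular protein, 24.1% ± 0.87. Differences among these 5 were smaller than the SD of Zfp36, so their order is not settled.

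At the other end, the 12 lowest shares were taken with no regard to later days, and 8 of them kept at least 0.8 of their share there. Biglycan, encoded by Bgn, a small proteoglycan of the matrix, had 301 of 85644, 199 of 71724 and 214 of 85607 reads labelled, which is 0.351%, 0.277% and 0.25%. Pcolce, which enhances procollagen processing, had 0.31%, 0.2% and 0.313%. Both are deeply sequenced, and their shares lay below the 5th percentile of all members in A and C (0.491% and 0.337%), with Bgn above it in B (0.225%) and Pcolce below. The Pcolce entry has only 56 bases, against 1140 for Bgn and a median of 1192 over all members.

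Pgls and Pgd, enzymes of the pentose phosphate pathway, had mean shares of 0.195% ± 0.03 and 0.261% ± 0.17 (SD, n = 3). Pgls rested on 5, 4 and 7 labelled reads, with 95% Wilson intervals from 0.0765% to 0.418% in A. Pgd rested on 7, 2 and 2 labelled reads. Ergic3 of the early secretory pathway, the lysosomal mannosidase Man2b1, Apod (apolipoprotein D), Park7 (DJ-1), Bsg (basigin), Selm (selenoprotein M), the thioesterase Acot13 and Pld3 lay between 0.217% and 0.290%, each with 0 to 27 labelled reads in a library. Their order is not settled, since single genes differed between libraries by more than these means differ. The entries of Pgls (76 bases), Acot13 (80), Ergic3 (129), Park7 (178) and Selm (191) are short. Those of Bsg (422), Pld3 (653), Pgd (659), Apod (1149) and Man2b1 (1222) are longer. Whether entry length or T content lowers these shares was not tested.

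**Figure D2:**
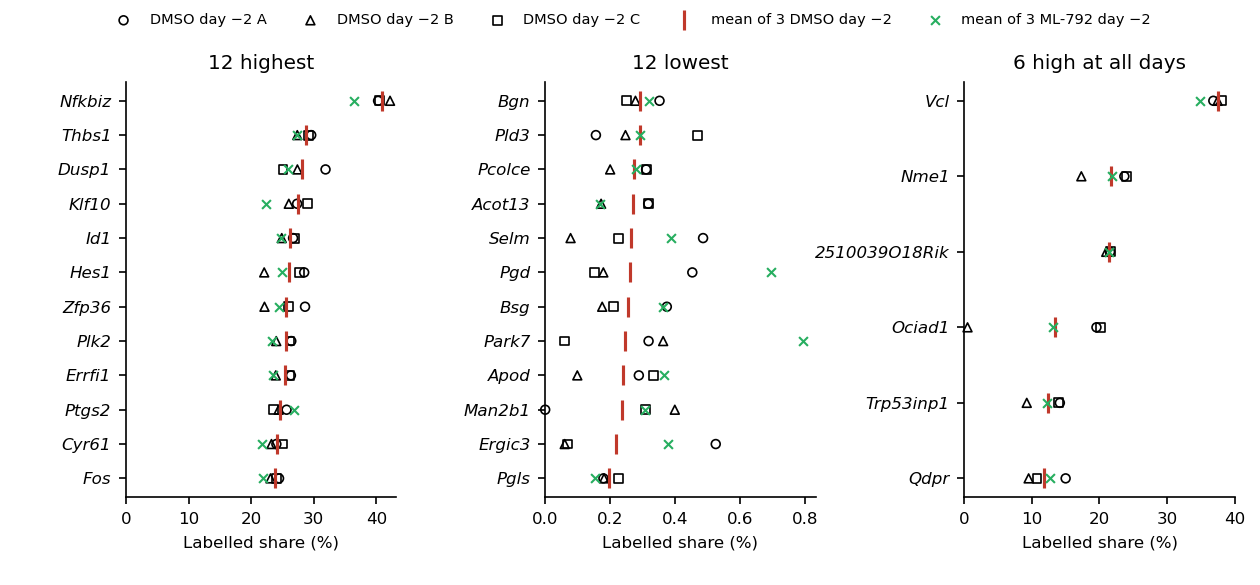
Labelled share (%) of the 12 members with the highest share, the 12 with the lowest, and 6 high members whose share stayed at 0.8 or more of its value at later days, all with at least 1000 reads per library. Open symbols are the 3 DMSO day −2 libraries, red bars their mean and green crosses the mean of ML-792 day −2. The scales of the panels differ, and Ociad1 is near 0 in replicate B.

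Some high shares stayed high at all days. Vcl, encoding the adhesion protein vinculin, had 36.9%, 37.5% and 38.1% at DMSO day −2 and between 27.2% and 38.1% in all 24 libraries. Nme1, a nucleoside diphosphate kinase, stayed between 15.3% and 25.8%. Ociad1 had 19.6% in A and 20.2% in C but 0.469% in B, and it was the only 1 of 5024 members read deeply enough in all 24 libraries whose share in B lay more than 4-fold below A and C in each of the 8 conditions. Of the 5511 members with at least 200 reads in every later DMSO library, 559 kept a mean share of at least 0.8 of that at day −2, among them 30 of 204 fast and 175 of 265 slow genes. They are counted with their classes here, and counts without them are given where they differ. Whether such shares come from new RNA was not tested.

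Near the limits of the rule, Zbtb10 (222, 215 and 200 reads) was just inside the read minimum and Alkbh4 (265, 199 and 331 reads) just outside. Stard4 was the last fast gene at 9.558% and Socs6 the next below it at 9.556%. Leprot was the highest slow gene at 0.54241%, beside Atp5e at 0.54246%.

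Gene lists fell at different places in this range. Of 33 immediate early transcription factors, 30 were members, with a median share of 17.9% against 2.33% for all members. Of these, 28 lay in the upper 10% of all members and 0 in the lower 10%. Among those with 1000 reads in each library, Klf10, Id1 and Fos had the highest shares, and Jund, the AP-1 subunit at 5.30% ± 0.61 (SD, n = 3), and Klf4 at 7.92% ± 0.98 the lowest. All 30 were above the median of all members.

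The feedback inhibitors of signalling, which include dual specificity phosphatases, Sprouty proteins and SOCS proteins, had a median share of 16.6% over 26 members, with 23 in the upper 10%. Spred1 (9.42%, 2.79% and 4.19% in A, B and C) and Socs2 (7.63%, 6.32% and 6.59%) were the lowest of the list read at 1000 or more. The list of chemokines and cytokines, which also holds the matricellular proteins Cyr61 and Ctgf, had a median of 18% over 15 members, with 11 in the upper 10%. Ccl7, a monocyte chemoattractant, had 26.0%, 19.3% and 25.7%, and Ctgf, a matricellular growth factor, 23.6%, 20.6% and 24.7%. Cxcl12, a chemokine that is made constitutively by stromal cells, stood apart with 1.05%, 1.12% and 1.02%. The lists of signalling genes thus held single members far below their median.

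The mRNA decay factors had a median of 4.29% over 24 members, and 6 lay in the upper 10%. These include Zfp36 and its relative Zfp36l2 (18.2% ± 1.08, SD, n = 3) and Btg2 (19.2% ± 0.69), which recruits the deadenylase complex. Edc4, a scaffold of decapping, was at 2.15% ± 0.99 and Khsrp, another AU-rich element binding protein, at 1.37% ± 0.35. Other transcription factors had a median of 4.66% over 61 members, with 17 in the upper 10%, and cell cycle regulators 3.51% over 34, with 8. Gadd45g, a stress-induced regulator of growth arrest, had 20.6% ± 1.43, whereas Cdk4, the kinase of the G1 phase, had 1.11% ± 0.39 and Cdkn2a 0.329% ± 0.03. Cholesterol synthesis genes had a median of 3.43% over 26 members, with 7 in the upper 10%. Noncoding RNAs with 1000 reads ranged from Neat1, the scaffold of paraspeckles, at 12.7% ± 1.87 to Malat1 at 1.01%, and the median over all 11 members was 6.33%.

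Of the 17 lists, 8 had a median below that of all members. Cytosolic ribosomal proteins had a median of 0.793% over the 41 of 82 that were members, with 19 in the lower 10% and 0 in the upper. Rpl13a, at 0.330% ± 0.04 (SD, n = 3), had the lowest share of those with 1000 reads. Oxidative phosphorylation subunits had 0.828% over 66 members, with 30 in the lower 10%, and glycolytic enzymes 0.802% over 13, with 6. Tpi1, a core enzyme of glycolysis, had 0.373% ± 0.20, whereas Slc2a1, the glucose transporter kept in the same list, had 5.69% ± 0.49. Extracellular matrix proteins had 1.19% over 48 members, with 13 in the lower 10% and 3 in the upper, among them Thbs1 and Col3a1.

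Proteasome subunits (1.69% over 32 members) and chaperones (1.93% over 28) lay a little below all members, and cytoskeletal genes (2.90% over 42) a little above. The pre-adipocyte markers had a median of 1.4% over 16 members, with Gas1, a growth arrest membrane protein, at 7.79% ± 1.13 and Dpt, the matrix protein dermatopontin, at 0.412% ± 0.20. The mature adipocyte markers had 1.27% over 9. The lists were written with earlier results of these data known, so their place is a description. No list's median changed sides of the median of all members when at least 1000 reads were required, when T content was taken off, or when 1 replicate was left out.

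**Figure D3:**
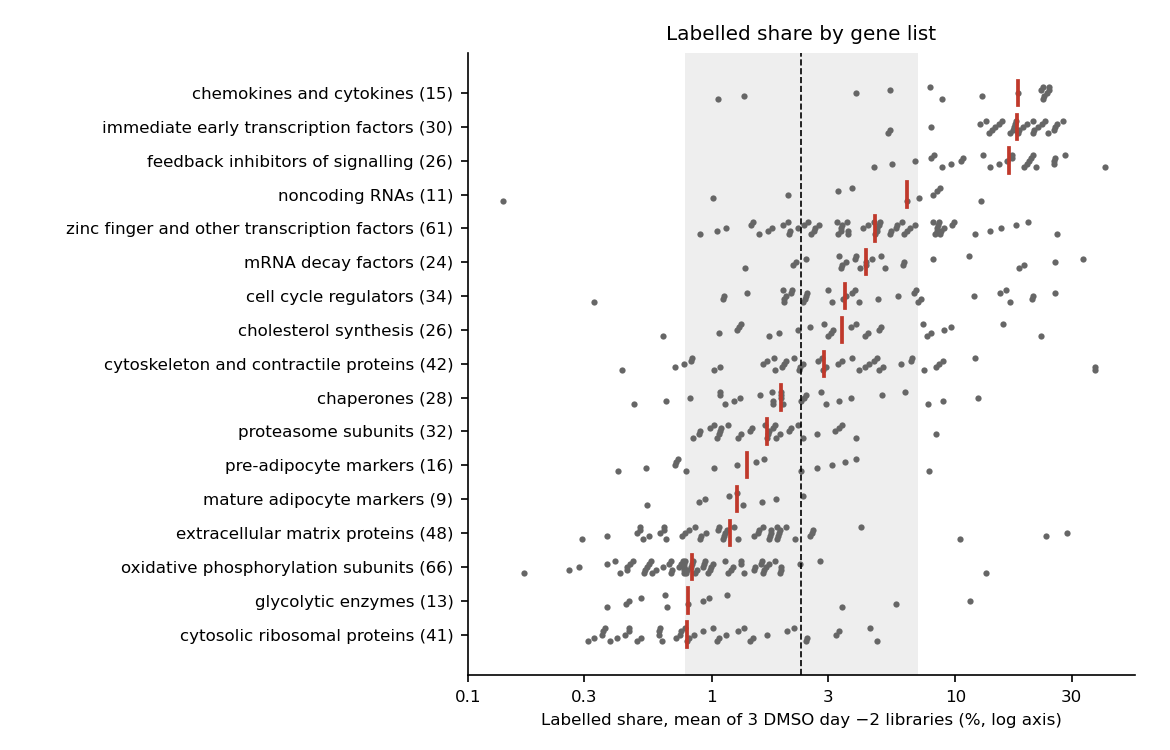
Labelled share of the members of 17 gene lists in DMSO day −2 (mean of 3 libraries, log axis), with the number of members in brackets. Points are genes, red bars list medians, the dashed line the median of all 7460 members and the grey band their 10th to 90th percentile. The top 3 lists have medians beyond the grey band.

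The classes were then read in the 3 ML-792 day −2 libraries, whose shares the rule had not used. In these libraries the fast genes had median shares of 11.7% to 12.8% and the slow genes of 0.453% to 0.472%, against 1.95% to 2.22% for all members. Of 368 fast genes with 200 reads in each, 360 were in the upper 10% of members. Of 370 slow genes, 269 were in the lower 10% and 368 below the median. No fast gene had a mean share as low as the highest slow gene (Pou2f1 at 4.75% was the lowest fast and Foxred2 at 2.75% the highest slow). The fast classes' median was 26.2-fold that of the slow, less than the 38.4-fold of the libraries that chose them.

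Labelled reads were compared with unlabelled reads of the same library by edgeR's quasi-likelihood test over 11387 genes in ML-792 day −2, with the library as a term. Calls needed an adjusted p (Benjamini-Hochberg) below 0.05 and a log2 ratio past 1 from the centre set by TMM normalization, whose median over all genes tested was −0.22. Over all genes, 14.0% were called higher in labelled reads and 18.6% lower. Of 373 fast genes, 368 were called higher and 0 lower, with a median log2 ratio of 2.36. Of 373 slow genes, 337 were called lower and 0 higher, with a median of −2.40. All 373 fast genes had a fitted ratio above 0 and all 373 slow genes one below 0, so that no threshold gives a call against the class, and DESeq2 called 0 fast genes lower and 0 slow genes higher. The calls of fast and slow genes in these libraries ran in the direction of their class.

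Nfkbiz had a log2 ratio of 4.48 ± 0.12 (SE; 477 of 1247, 551 of 1629 and 680 of 1830 reads labelled in A, B and C), and its adjusted p by edgeR's quasi-likelihood test was 6.24e-284. Dusp1 had 3.77 ± 0.11, Zfp36 3.66 ± 0.11 and Fos 3.44 ± 0.10 (SE). Bgn had −3.01 ± 0.09 (SE), with an adjusted p of 5.30e-244, and Pgls, with 3 to 8 labelled reads, had −4.01 ± 0.31 and an adjusted p of 7.23e-37. Park7 and Pgd, among the 12 lowest at DMSO day −2, had less extreme ratios of −1.75 ± 0.27 and −1.86 ± 0.31. Ociad1 was not called (2.16 ± 1.38, adjusted p = 0.386), with 38 labelled reads in B against 284 in A and 520 in C.

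All 30 immediate early members were called higher in ML-792 day −2, as were 24 of 26 feedback inhibitors and 12 of 15 chemokines and cytokines, of which 1, Cxcl12, was lower. Of the transcription factors, 27 of 61 were higher and 4 lower. Of the oxidative phosphorylation subunits, 50 of 66 were lower and 1 higher, of the ribosomal proteins 29 of 41 lower, and of the matrix proteins 27 of 48 lower and 3 higher. Among proteasome subunits 11 of 32 were lower and 20 were not called.

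**Figure D4:**
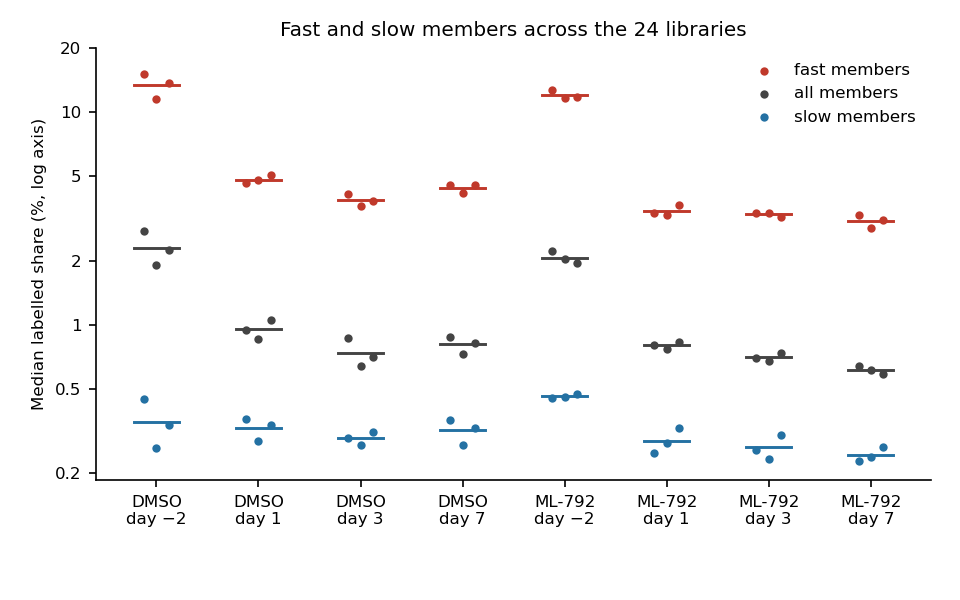
Median labelled share (%, log axis) of fast, slow and all members in each of the 24 libraries. Points are libraries A, B and C, and bars are the mean of 3. The fast genes' median was 13.4% at DMSO day −2 and 4.81% at day 1, and that of all members 2.30% and 0.95%. The median of the slow genes stayed between 0.245% and 0.460% in the 8 conditions.

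Over the later days, the shares of the fast genes differed most from day −2 in percentage points. In DMSO, the mean of the library medians was 13.4% ± 1.74 (SD, n = 3) at day −2. It was 4.81% ± 0.22, 3.85% ± 0.25 and 4.41% ± 0.21 at days 1, 3 and 7. The slow genes had 0.350% ± 0.09, 0.327% ± 0.04, 0.292% ± 0.02 and 0.318% ± 0.04, and the libraries of day −2 overlapped with those of each later day. All members had 2.30% ± 0.42, 0.95% ± 0.10, 0.738% ± 0.12 and 0.808% ± 0.07. The fast genes stood at 5.84-fold the value of all members at day −2. At days 1, 3 and 7 they stood at 5.06-fold, 5.22-fold and 5.46-fold. Gene by gene, members with 200 reads in every later DMSO library were compared with their own share at day −2. Their mean later share was a median 0.31 of it in fast genes, 0.41 in all such members and 0.94 in slow genes. Choosing the classes at day −2 can widen these differences by construction. Since the day −2 values chose the classes, no test was made. The number of fast genes with 200 reads was 373 at day −2 and 254 to 320 at later DMSO days, so the medians do not cover the same genes. In ML-792 the fast genes had 12.1% ± 0.60 at day −2 and 3.43% ± 0.21, 3.31% ± 0.08 and 3.08% ± 0.21 at days 1, 3 and 7.

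Total reads of the members were compared between day 1 and day −2 in ML-792, whose values had no part in the classes but counted in the choice of entry. In such bulk samples, fewer cells of a type and less RNA per cell cannot be told apart. Over 12230 genes tested by edgeR's quasi-likelihood test, 20.0% were called higher and 22.2% lower at day 1 at an adjusted p under 0.05. Of all members, 1423 of 7460 were higher and 1872 lower. Members needed 200 total reads at DMSO day −2 and no minimum at day 1, which can tilt them toward lower calls by construction. Of 373 fast genes, 159 were lower and 56 higher, with a median log2 fold change of −0.35 against 0.02 over all genes tested. Of 373 slow genes, 116 were lower and 78 higher, with a median of −0.05. Without the members that kept their share at later days, 156 of 343 fast genes were lower and 49 higher, and 86 of 198 slow genes were lower and 31 higher. Only genes with at least 200 reads in every later DMSO library could be left out. Genes whose reads fell below that stayed in, so the part called lower can rise by construction. Lower calls made up 42.6% of fast genes, 31.1% of slow genes and 25.1% of all members, and the difference between the classes was not tested.

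With replicate letters as a block, which pairs the libraries by letter, 133 slow genes were called higher in place of 78 and 149 lower in place of 116. Of the fast genes, 197 were lower in place of 159 and 78 higher in place of 56, and of all members 2739 were lower and 2327 higher. The counts moved with single libraries. Without replicate A, 114 fast genes were lower and 25 higher, and 69 slow genes lower and 28 higher. Without replicate C, 124 fast genes were lower and 32 higher, and 41 slow genes were higher. Without replicate B, 118 slow genes were higher. The calls over all genes tested moved as well. Without A, 1092 of 12438 were higher and 1455 lower, and without C 1333 of 12262 and 1736. Without B, 3125 of 12299 were higher and 3142 lower. With all libraries these were 2441 of 12230 and 2720, and with the block 3635 and 3799.

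By name, Thbs1 had 767 to 911 CPM (counts scaled to the library) at day −2 and 81.2 to 88.7 at day 1, and fell by 3.32 on the log2 scale (SE 0.16, adjusted p = 2.10e-06 by edgeR's quasi-likelihood test). Ctgf had 144 to 274 and 9.65 to 14.2 CPM, Plk2 277 to 286 and 30.4 to 39.3, and Fos 266 to 367 and 30.1 to 56.3, with no overlap between days. Klf10 went the other way, with 104 to 132 CPM at day −2 and 271 to 296 at day 1 (log2 fold change 1.28 ± 0.16 SE, adjusted p = 0.000239). Nfkbiz (0.30 ± 0.14 SE, adjusted p = 0.108) and Id1 (−0.30 ± 0.15 SE, adjusted p = 0.136) were not called without the block. With the replicate block both were, Nfkbiz higher (0.30 ± 0.09 SE, adjusted p = 0.0106) and Id1 lower (−0.30 ± 0.08 SE, adjusted p = 0.0035). Nfkbiz was higher and Id1 lower at day 1 in each of the 3 pairs.

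The lists differed likewise. Immediate early factors were lower in 20 of 30 members and higher in 4, and chemokines and cytokines lower in 11 of 15 and higher in 1. Ribosomal proteins were higher in 22 of 41 and lower in 1, and oxidative phosphorylation subunits higher in 28 of 66, with 60 of 66 fitted values above 0. With the replicate block 37 ribosomal proteins and 54 oxidative phosphorylation subunits were higher, and 1 of each lower. Proteasome subunits were higher in 8 of 32, and in 27 with the block. Cholesterol synthesis genes were lower in 20 of 26 and higher in 4. Mature adipocyte markers were higher in 8 of 9.

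The members also differed in features that the rule did not use. Fast genes had a median entry length of 1380 bases and a T content of 30.9%, slow genes 427 bases and 25.4%, and all members 1192 bases and 29.3%. Across members, the share had a Spearman's rho of 0.339 with entry length and 0.309 with T percent. T content thus moved with the share. With the share scaled to the median T content, the median over all members was 2.35% in place of 2.33%. Such scaling leaves that median nearly unchanged by construction, so it does not show how far T content matters.

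AU-rich motifs were counted in the last 300 bases of the 6427 entries of at least that length. The heptamer TATTTAT, which contains the pentamer ATTTA, occurred on the sense strand in 77 of 352 fast genes (21.9%), in 5 of 231 slow genes (2.16%) and in 9.90% of all members. Its reverse complement, ATAAATA, has the same A and T content together but fewer T, so it is not matched for T content. It occurred in 11.4% of fast, 8.66% of slow and 12% of all members. In the 10% of members with the lowest share the heptamer occurred in 2.94% and its reverse complement in 8.4%, and in the 10% with the highest share in 17.1% and 11.8%. Among members whose T content in this window was from 28.67% to 34%, 21 of 113 fast genes (18.6%) and 1 of 59 slow genes (1.69%) held the heptamer.

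The pentamer ATTTA occurred in 59.4% of fast, 25.5% of slow and 43.7% of all members, and its reverse complement TAAAT in 63.9%, 42.4% and 57.8%. Median shares were 2.46% for the 5791 members without the heptamer, 3.09% for the 560 with 1 copy, 5.18% for the 68 with 2 and 12.7% for the 8 with 3 or more. Of those 8, 4 were fast. T content in the last 300 bases was also higher with the heptamer, with medians of 31%, 34%, 36.8% and 34.8% in the same order. At 29% to 34% T, the median share was 2.58% without the heptamer and 2.90% with any copy. Below that range it was 1.77% and 2.02%, and above it 3.30% and 3.92%. These differences were smaller than those between neighbouring T ranges. Zfp36 holds 3 copies in this window, Fos, Cyr61, Dusp1 and Plk2 hold 2, and Id1, Hes1 and Gadd45g, which are also fast, hold 0. Over the whole entry, Ptgs2 holds 14 copies of ATTTA in 2452 bases and Cyr61 5 in 695. A match to these letters is not a shown site of binding, and fast genes without the motif were the majority (275 of 352).

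**Figure D5:**
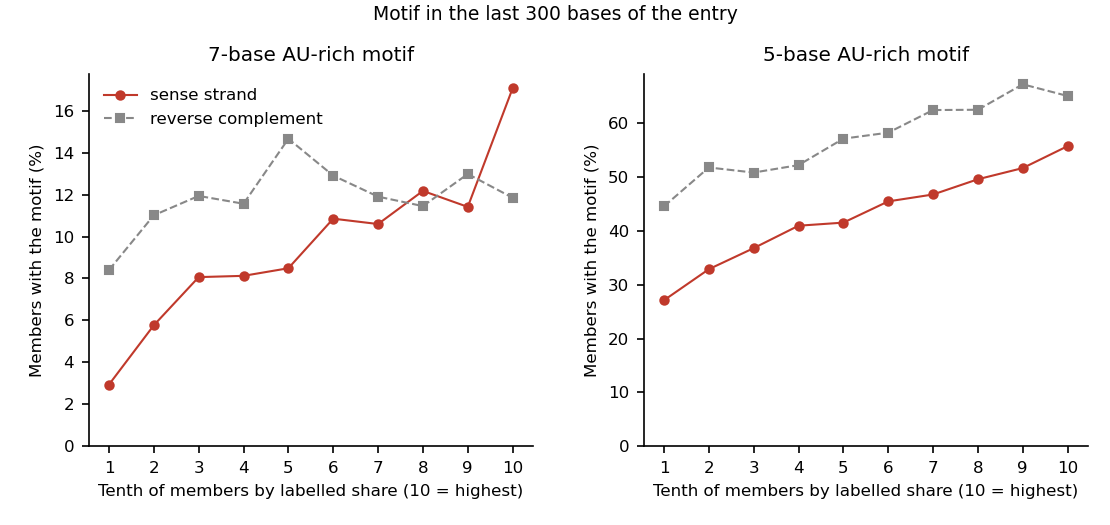
Percent of members with each AU-rich motif in the last 300 bases of the entry, by 10% steps of labelled share in DMSO day −2 (10 is the highest), for TATTTAT (left) and ATTTA (right). Red points are the sense strand and grey squares the reverse complement. The 7-base motif on the sense strand reaches 17.1% in the highest step, above its reverse complement at 11.8%.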

How the data were processed

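SLAMseq libraries of 3T3-L1 cells were read from the deposited tables. The authors prepared 3′ mRNA libraries, demultiplexed them with bcl2fastq 2.17.1.14 (submitters' processing notes), mapped and filtered the reads with SlamDunk to mm10, and deposited raw counts of total and labelled reads (at least 1 T-to-C conversion) for 91830 RefSeq 3′ UTR entries, with no normalization. Length and T bases per entry were taken from the same tables, and 7460 of 7460 members had the T count of GRCm38. Each deposited file had 6 library columns that matched no sample and were left out. Libraries were grouped by sample title. Members and lists were chosen with earlier results of these data known.

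Shares were computed in Python 3.11.15. Tests used edgeR 4.0.16 (glmQLFit, robust, filterByExpr with a minimum count of 10, TMM) in R 4.3.3, and the standard error is the absolute log2 value over the root of F. The labelled test has the library as a term. Letters A, B and C were taken as pairs in the block. Same-letter deviations between ML-792 days −2 and 1 had correlations of 0.259, 0.572 and 0.270. A of day −2 against C of day 1 had 0.213, and C against A 0.130. The check thus set B apart, but A and C only weakly from each other. On simulated counts of 10993 genes, 99% of genes 4-fold lower and 100 of 100 genes 4-fold higher in labelled reads were recovered. The changed genes were drawn above a minimum mean count, with a fixed dispersion, so the recovery does not cover the members with the fewest reads.

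Named genes were the 12 highest and 12 lowest shares among members with 1000 reads in each library, with up to 6 kept at later days named apart, the 5 with the most labelled and the 5 with the most total reads, and up to 3 highest and 2 lowest of each list. Some genes that this rule names are not reported here. Alternatives were other read minimums, entries, class sizes, T content and background corrections, DESeq2 1.42.0, no filter, no TMM, the replicate block, and leaving out replicates. Those that left out members keeping their share at later days, or compared motifs within a range of T content, were chosen after seeing the data.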

Additional observations from a re-analysis of the deposited data

How the results depend on the processing

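The median share of the members moved by less than the SD between libraries under every alternative run, of which taking off the 1st percentile changed nothing because it was 0 in each library. Scaling to the median T content also leaves this median nearly in place by construction. Pearson's r of labelled and total reads was 0.614 with at least 1000 reads, and Spearman's rho was 0.668. The ratio of the fast to the slow genes' median of mean shares (33.6) was 17.6 for classes of 10% and 70.5 for classes of 2%, and lay between 20.7 and 26.7 for classes chosen on 2 replicates and read in the one left out. In the labelled test, all entries gave 6324 calls in place of 3708, with 1 entry of fast genes lower, 6 of slow genes higher and 529 of slow genes lower. Without members that kept their share, 178 of 198 slow genes were lower. Library totals without TMM moved the median log2 ratio of all genes from −0.22 to −0.40 and the share of calls that were higher from 42.9% to 33.1%. With no replicate block 1863 genes were higher and 2212 lower, against 1592 and 2116.

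For total reads, all entries gave 8117 calls in place of 5161, with 118 of slow genes higher and 177 lower. The replicate block gave 7434 calls and 133 slow genes higher. It also raised by over 1.5 times the members called higher (1423 to 2327), the slow genes without those that kept their share (31 to 51 higher), and the calls in the ribosomal, oxidative phosphorylation and proteasome lists given above. Smaller lists moved past that size too, with feedback inhibitors 4 to 8 higher, glycolytic enzymes 3 to 6 higher and cytoskeletal genes 2 to 5 higher. Leaving out 1 replicate gave 2547 (without A) to 6267 (without B) calls, 25 to 70 fast genes higher, 28 to 118 slow genes higher and 69 to 131 slow genes lower. Without members that kept their share, a filter that also uses later total reads, 31 slow genes were higher. Fewer samples and more entries account for part of these moves by construction, and otherwise the cause was not tested. Slow genes rest on few labelled reads (5 of 1000 at their upper limit), which limits their order and how firmly they are placed in the class.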
